A study of Mus musculus with 6 samples.

Results

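NF-κB and Toll-like receptor signalling was examined through 10 genes in liver RNA-seq of mice fed a high-fat diet (HFD). They were selected by gene symbol: Tlr4, Tlr2 and Cd14 (receptors), Myd88 (adaptor), Rela, Nfkb1, Relb and Nfkb2 (NF-κB subunits), and Nfkbia and Tnfaip3 (inhibitors). All 10 were found among the 45777 genes listed, and all 10 were among the 17274 genes tested. Livers came from 3 LT mice, which are Fpn flox/flox littermates without Cre, and from 3 Fpn-LKO mice, which carry Fpn flox/flox together with Alb-Cre, with 1 library per mouse. Fpn is Slc40a1, the gene of the iron exporter ferroportin, so both groups carried the floxed allele and both were fed the HFD. All 6 were male C57BL/6 mice of the same labelled batch, and their age at sampling and time on the diet are not given in the labels. Cre driven by the albumin promoter acts in hepatocytes, so the macrophages, endothelial cells and stellate cells of a Fpn-LKO liver keep an intact Fpn allele, and all of them contribute RNA to whole liver.

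Toll-like receptors sense microbial products and some products of damaged cells. TLR4 recognises lipopolysaccharide, which LBP and CD14 deliver and the co-receptor LY96 (MD-2) holds, and TLR2 recognises bacterial lipoproteins. Both pass the signal through MYD88 and IRAK kinases to the IκB kinase complex, which marks IκB proteins for destruction and so releases NF-κB dimers to the nucleus. RELA and the product of Nfkb1 carry the canonical branch, and RELB and the product of Nfkb2 the non-canonical one. NF-κB turns on its own inhibitors, IκBα (Nfkbia) and the ubiquitin-editing enzyme A20 (Tnfaip3), and in liver the pathway is best known in Kupffer cells, the resident macrophages. Much of this control acts on protein, through phosphorylation, degradation and movement to the nucleus, which RNA levels do not record.

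For none of the 10 genes was a genotype difference larger than the spread between mice detected. No gene passed an adjusted p of 0.05 (quasi-likelihood test of edgeR, Benjamini-Hochberg adjusted across every gene tested), where 0.0232% of all genes tested did, and the adjusted p-values lay between 0.982 and 0.995. Myd88 was the 1 gene with an unadjusted p under 0.05 and higher values in the libraries labelled Fpn-LKO, against 2.62% of all genes tested. No gene had such a p with lower values, against 2.19%. In all 10 genes the values of the groups overlapped, whereas 5.25% of all genes tested were higher and 5.34% lower in Fpn-LKO without overlap. The log2 fold change, Fpn-LKO over LT, was above 0 in 7 genes and below 0 in 3, with a median of 0.19 beside -0.0040 over all genes tested. That median rested on 1 library, since without Fpn-LKO replicate 1 it was -0.015. The plot of values by mouse shows the overlap gene by gene.

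**Figure D1:**
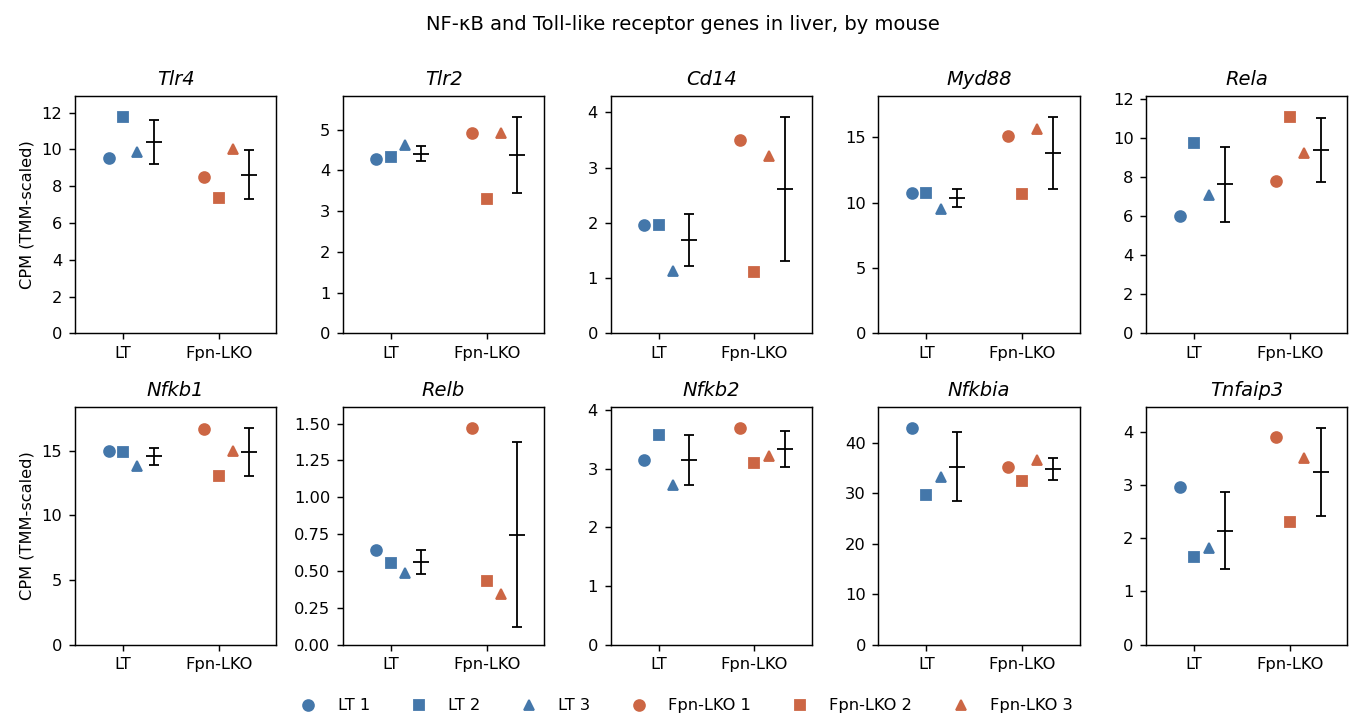
CPM (counts scaled to a common TMM-adjusted library size, linear axis from 0) of the 10 genes in each of the 3 LT (blue) and 3 Fpn-LKO (orange) livers, with symbol shape giving the replicate number and the horizontal bar and whiskers the mean ± SD of 3 mice. In every panel the ranges of the groups overlap, and in 8 of the 10 panels the orange square, Fpn-LKO replicate 2, is the lowest orange point.

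Several of these genes are known NF-κB targets as well as parts of the pathway, so their promoters were searched for the κB consensus, the decamer that NF-κB dimers bind. It opens with a run of G, goes on with a purine, a pair of free bases and pyrimidines, and closes with C. Of the 10 genes, 6 had promoter windows in the RefSeq table for GRCm38.p6, in 9 windows of 300 bases (250 before to 50 after an annotated start). On either strand, 4 of the 6 genes held a match (Nfkbia, Nfkb2, Tlr2 and Tnfaip3) and Myd88 and Rela held none. A match was present in 9.55% of the 27025 genes with a window, and in 8.46% of the 32851 windows. Stretches with matches are shown, though not all of them, because NF-κB is known to regulate these genes and their levels are described below. They read 5′ to 3′ on the gene's strand, with bases that match in capitals, and where 2 matches overlap the capitals cover both.
Nfkbia, chr12:55492658-55492685, minus strand: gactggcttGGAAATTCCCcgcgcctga
Nfkb2, chr19:46304689-46304717, plus strand: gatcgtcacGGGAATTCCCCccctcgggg
Nfkb2, a more downstream start, chr19:46305696-46305723, plus strand: ggtattttcGGGACTTTCCtaagcagca
Tlr2, chr3:83841762-83841790, minus strand: aggacacctGGGGAATTCCCacacggagc
Tnfaip3, chr10:19015517-19015544, minus strand: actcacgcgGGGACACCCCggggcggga
Tnfaip3, nearer the start, chr10:19015404-19015431, minus strand: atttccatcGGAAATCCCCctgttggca

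Distances were taken from the start of the RefSeq transcript to which each window belongs. The first capital lay 29 bases upstream of that start in Nfkbia, 39 in the first Nfkb2 stretch, 225 in the second, 173 in Tlr2, and 125 and 12 in the Tnfaip3 pair. The starts used for Nfkb2 and Tlr2 lie inside the span given for these genes below, downstream of its outer end, so those stretches are also within the gene, and the second Nfkb2 stretch follows another annotated start closely. A match is a run of letters, and no measurement of factor binding was made in these livers.

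Total counts lay between 43086184 and 47778683 per library, and no pair of replicates of a genotype matched within sampling noise (chi-square per degree of freedom 65.8 to 322). Slc40a1, the targeted gene, gave 154, 180 and 126 CPM for LT and 143, 143 and 176 CPM for the libraries labelled Fpn-LKO, with a log2 fold change of 0.0073 (SE 0.16, adjusted p = 0.995, edgeR). Its transcript count did not separate the groups, so every direction below rests on the labels. Hepatocyte markers marked all 6 libraries as liver, with a summed level of 76835 to 91396 CPM in LT and 81260 to 91131 CPM in Fpn-LKO, led by Alb. Kupffer cell and macrophage markers were present too, and all 14 of the list were detected in every library. Their summed level was 449, 588 and 465 CPM for LT and 477, 396 and 841 CPM for Fpn-LKO (p = 0.8, exact two-sided permutation test, whose smallest possible p here is 0.1). Neutrophil markers summed to 3.19 to 3.97 CPM in LT and 2.23 to 5.0 CPM in Fpn-LKO (exact permutation p = 0.6), with Ly6g, Mpo, Ngp and Camp at 0 reads in every library. In whole liver, fewer cells of a type and less RNA per cell cannot be told apart.

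Per transcript length the 10 genes spanned a wide range of levels. On the deposited TPM scale, averaged over the 6 libraries, Nfkbia was the highest at 29.2, with single libraries from 23.6 to 38.2. Myd88 followed at 8.15 (5.64 to 10.6), then Nfkb1 at 4.62 (3.85 to 5.08) and Rela at 4.21 (3.05 to 6.23). Below them came Tlr2 at 1.97 (1.72 to 2.23), Cd14 at 1.67 (0.780 to 2.60), Tlr4 at 1.57 (1.33 to 1.86), Nfkb2 at 0.928 (0.493 to 1.45), Tnfaip3 at 0.796 (0.460 to 1.08) and Relb at 0.348 (0.182 to 0.769). Neighbours in this order were separated, with no overlap between libraries, only between Nfkbia and Myd88, between Myd88 and Nfkb1, and between Rela and Tlr2. The canonical subunits thus stood above the receptors, and the receptors overlapped among themselves. Nfkb2 and Relb, the non-canonical pair, were among the 3 lowest by mean.

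Among the receptors, Tlr4 (chromosome 4, 66827551 to 66846581, plus strand, 3 exons in its main GENCODE transcript) gave 9.54, 11.8 and 9.89 CPM for LT and 8.51, 7.35 and 10.02 CPM for Fpn-LKO. The Fpn-LKO livers included the 2 lowest of the 6, but replicate 3 lay above 2 of the LT livers. Means were 10.4 ± 1.19 and 8.63 ± 1.34 CPM (SD, n = 3 each), with a log2 fold change of -0.27 (SE 0.17, 95% interval -0.66 to 0.13, adjusted p = 0.982, edgeR) that ran from -0.39 to -0.17 when 1 library was left out. Tlr2 (chromosome 3, 83836272 to 83841824, minus strand, 3 exons) gave 4.28, 4.32 and 4.62 CPM for LT and 4.91, 3.30 and 4.91 CPM for Fpn-LKO. The 3 LT livers were nearly equal while the Fpn-LKO livers lay on both sides of them. Means of 4.4 ± 0.185 and 4.37 ± 0.930 CPM (SD, n = 3 each) left a log2 fold change of -0.010 (SE 0.22, adjusted p = 0.995, edgeR), which had a 95% interval of -0.52 to 0.50.

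Cd14, the lipopolysaccharide-binding co-receptor of monocytes and macrophages, was the receptor gene with the widest spread. It gave 1.97, 1.96 and 1.14 CPM for LT and 3.50, 1.11 and 3.21 CPM for Fpn-LKO, a 3.14-fold range over the 6 libraries on 47 to 167 reads. Fpn-LKO replicates 1 and 3 were above every LT liver and replicate 2 was the lowest of all. The means of 1.69 ± 0.479 and 2.61 ± 1.30 CPM (SD, n = 3 each) gave a log2 fold change of 0.62 (SE 0.46, 95% interval -0.45 to 1.70, adjusted p = 0.982, edgeR). Leaving out 1 library moved it both ways, to 0.99 without Fpn-LKO replicate 2 (unadjusted p = 0.0242, adjusted p = 0.999, edgeR) and to 0.35 without Fpn-LKO replicate 1 (unadjusted p = 0.512). It was 0.41 without LT replicate 3. The summed macrophage marker level was also lowest in Fpn-LKO replicate 2, but it was highest in replicate 3. In Fpn-LKO replicate 1, where Cd14 was highest, the summed level was 477 CPM, within the LT range of 449 to 588 CPM. Its part in the spread of Cd14 was not tested.

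Myd88, the adaptor that TLR2, TLR4 and the interleukin-1 receptor share, lies on chromosome 9 from 119335934 to 119340018 on the minus strand, with 6 exons. It gave 10.8, 10.8 and 9.52 CPM for LT and 15.1, 10.6 and 15.6 CPM for Fpn-LKO. Again Fpn-LKO replicates 1 and 3 were above every LT liver, while replicate 2 lay within the LT range. Means were 10.3 ± 0.716 and 13.8 ± 2.75 CPM (SD, n = 3 each), 1.33 times as high in Fpn-LKO, with a log2 fold change of 0.41 (SE 0.18, 95% interval 0.0042 to 0.82). The unadjusted p was 0.0482 and the adjusted p 0.982 (edgeR, quasi-likelihood test, Benjamini-Hochberg adjusted). The unadjusted p crossed 0.05 when libraries were left out: it was 0.00689 without Fpn-LKO replicate 2, and 0.0750 to 0.143 without any 1 of the other 5 libraries. In GENCODE, Myd88 overlaps Slc22a14 on its own strand and Acaa1a on the opposite strand, the latter by 1736 bases. Acaa1a, a peroxisomal thiolase of fatty acid oxidation, was far more abundant, at 351 CPM in LT and 309 CPM in Fpn-LKO (log2 fold change -0.18, SE 0.15, adjusted p = 0.985, edgeR), and the strand setting of the counting is not given in the sources used here.

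Rela and Nfkb1 encode the canonical NF-κB subunits p65 and p105, the precursor of p50. Rela (chromosome 19, 5637442 to 5648134, plus strand, 11 exons) gave 6.03, 9.77 and 7.08 CPM for LT and 7.80, 11.1 and 9.25 CPM for Fpn-LKO. Its spread was wide within both groups, and LT replicate 2 exceeded 2 of the Fpn-LKO livers. The means of 7.62 ± 1.93 and 9.37 ± 1.64 CPM (SD, n = 3 each) gave a log2 fold change of 0.30 (SE 0.23, 95% interval -0.23 to 0.82, adjusted p = 0.982, edgeR). It was 0.15 without LT replicate 1, 0.16 without Fpn-LKO replicate 2 and 0.52 without LT replicate 2. Nfkb1 (chromosome 3, 135584655 to 135691969, minus strand, 25 exons) gave 14.98, 14.9 and 13.8 CPM for LT and 16.7, 13.0 and 14.9 CPM for Fpn-LKO. It was the steadiest of the 10 genes, with a 1.28-fold range over the 6 libraries. Its log2 fold change was 0.031 (SE 0.13, 95% interval -0.28 to 0.34, adjusted p = 0.995, edgeR), an interval that spans 0.825-fold to 1.26-fold.

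Relb, the partner of p52 in the non-canonical branch (chromosome 7, 19606217 to 19629438, minus strand, 12 exons), was the lowest of the 10 and was counted on few reads. It had 32, 24 and 20 reads in LT and 70, 20 and 16 in Fpn-LKO, or 0.643, 0.554 and 0.483 CPM against 1.47, 0.428 and 0.345 CPM. A single library, Fpn-LKO replicate 1, stood above the other 5, and the other Fpn-LKO livers were below every LT liver. The log2 fold change was 0.41 (SE 0.60, 95% interval -0.98 to 1.80, adjusted p = 0.995, edgeR), and without Fpn-LKO replicate 1 it was -0.53.

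Nfkb2, which encodes p100, the precursor of p52 (chromosome 19, 46300994 to 46312400, plus strand, 22 exons), depended on the scale. By read counts it gave 3.15, 3.58 and 2.73 CPM for LT and 3.69, 3.11 and 3.21 CPM for Fpn-LKO, an even level in all 6 livers (log2 fold change 0.080, SE 0.21, 95% interval -0.42 to 0.58, adjusted p = 0.995, edgeR). On the deposited TPM scale it had 1.29, 0.985 and 0.493 in LT and 0.681, 1.45 and 0.670 in Fpn-LKO, so that Fpn-LKO replicate 2 became the highest library and LT replicate 3 the lowest. The ratio of CPM to FPKM was divided by its median over genes in the same library and set to 1 in the lowest library. It was 1.07, 1.41 and 1.97 in LT and 2.08, 1 and 1.97 in Fpn-LKO. For the other 9 genes this quantity varied at most 1.12-fold over the libraries, against 2.08-fold for Nfkb2. Of the 12836 genes whose libraries all held at least 20 reads, 67 (0.522%) had a range at least as large. RefSeq lists 4 transcripts of Nfkb2, and which of them the reads came from was not tested. The gene also overlaps the opposite-strand genes AC114539.1 and Psd.

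**Figure D2:**
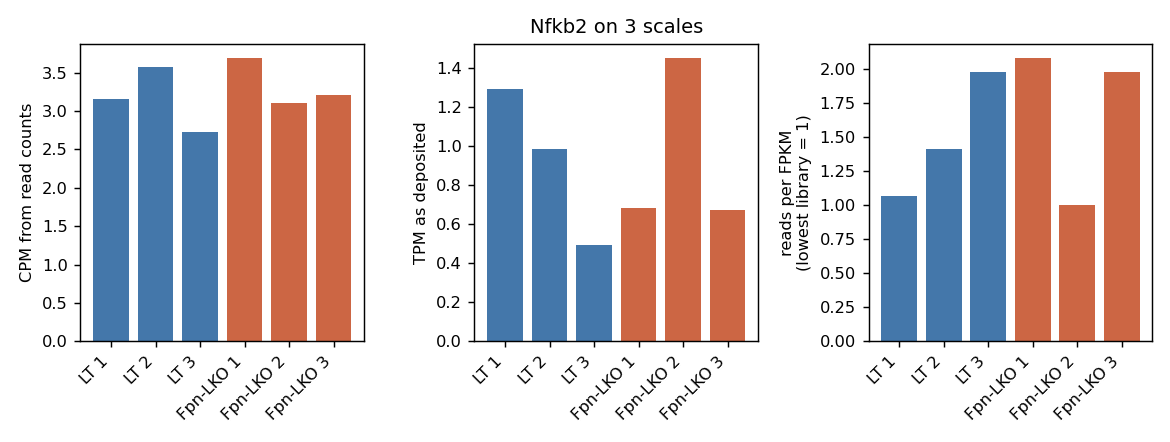
Nfkb2 in each of the 3 LT (blue) and 3 Fpn-LKO (orange) livers as CPM from read counts, as deposited TPM, and as the ratio of CPM to FPKM, with 1 bar per library and linear axes from 0. The ratio, labelled reads per FPKM, is divided by its median over genes in each library and given relative to the lowest library. The CPM bars are nearly level, while the TPM bars run from 0.493 to 1.45 and are tallest where that ratio is lowest.

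The inhibitors gave an even picture for Nfkbia and a spread one for Tnfaip3. Nfkbia (chromosome 12, 55489409 to 55492647, minus strand, 6 exons), whose promoter stretch is printed above, gave 42.9, 29.8 and 33.2 CPM for LT and 35.3, 32.4 and 36.7 CPM for Fpn-LKO. All 3 Fpn-LKO livers lay inside the LT range. LT averaged 35.3 ± 6.81 and Fpn-LKO 34.8 ± 2.2 CPM (SD, n = 3 each), with a log2 fold change of -0.022 (SE 0.15, 95% interval -0.38 to 0.33, adjusted p = 0.995, edgeR). Tnfaip3 (chromosome 10, 19000910 to 19015410, minus strand, 9 exons) gave 2.97, 1.64 and 1.81 CPM for LT and 3.90, 2.31 and 3.51 CPM for Fpn-LKO. Fpn-LKO replicates 1 and 3 were above every LT liver, and replicate 2 was below LT replicate 1. Means were 2.14 ± 0.725 and 3.24 ± 0.827 CPM (SD, n = 3 each), 1.51 times as high in Fpn-LKO, with a log2 fold change of 0.59 (SE 0.33, 95% interval -0.17 to 1.36, unadjusted p = 0.111, adjusted p = 0.982, edgeR). Leaving out 1 library moved it both ways, to 0.91 without LT replicate 1 (unadjusted p = 0.0322, adjusted p = 0.984, edgeR) and to 0.44 without LT replicate 2 or without Fpn-LKO replicate 1 (unadjusted p = 0.268 and 0.275).

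**Figure D3:**
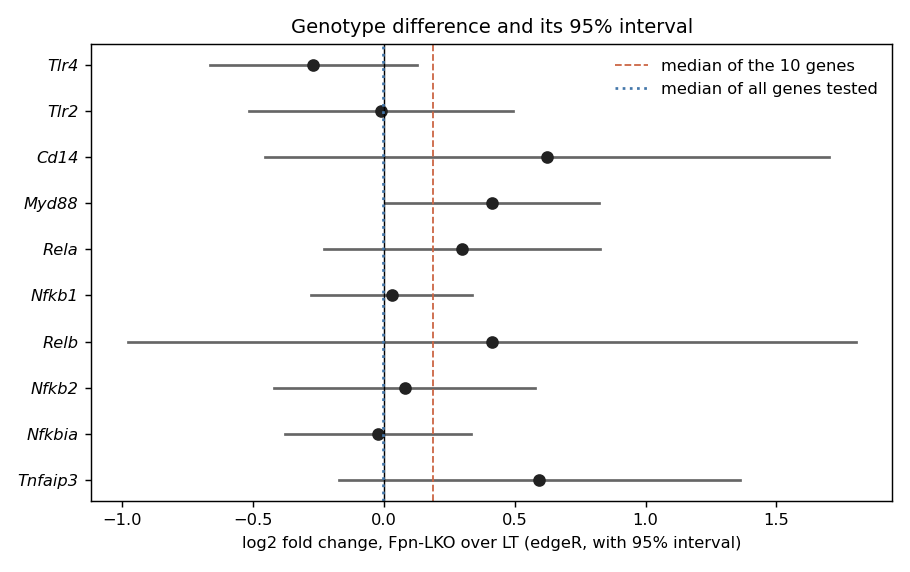
Log2 fold change, Fpn-LKO over LT, of the 10 genes with its 95% interval from edgeR's quasi-likelihood test (3 mice per group), the median of the 10 genes (dashed, 0.19) and the median of all genes tested (dotted, -0.0040). The intervals of 9 genes include 0 and that of Myd88 starts at 0.0042, and the widest belong to Relb and Cd14.

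The libraries of the Fpn-LKO group did not share 1 pattern. Fpn-LKO replicate 1 was the highest of all 6 libraries for 5 of the 10 genes, and Fpn-LKO replicate 2 was the lowest of all 6 for 4. Within the Fpn-LKO group, replicate 2 was the lowest for 8 of the 10 genes, beside 30.6% of all genes tested. In 4 genes (Tlr2, Cd14, Myd88 and Tnfaip3) Fpn-LKO replicates 1 and 3 were above every LT liver and replicate 2 was not, as in 4.67% of all genes tested. These counts were made after the values were seen and carry no test. Among the 17 known NF-κB targets tested, 2 had the same arrangement, Icam1 and Il1b, and replicate 2 was the lowest Fpn-LKO library in 7, as was replicate 1. Icam1, an adhesion molecule of endothelium and leukocytes, gave 6.27, 5.87 and 6.84 CPM for LT and 12.7, 5.18 and 11.1 CPM for Fpn-LKO. Its groups overlapped (log2 fold change 0.61, SE 0.31, adjusted p = 0.982, edgeR), and with 1 library left out the log2 fold change ran from 0.36 to 0.91. Il1b, the cytokine interleukin-1β, gave 2.37, 1.29 and 2.73 CPM for LT and 4.63, 1.67 and 3.51 CPM for Fpn-LKO (log2 fold change 0.62, SE 0.44, adjusted p = 0.982, edgeR), with 0.28 to 0.93 when 1 library was left out. The summed monocyte marker list overlapped between the groups, at 780 to 876 CPM in LT and 781 to 1156 CPM in Fpn-LKO (exact permutation p = 0.8). Fn1, a gene that hepatocytes express too, was then left out, after its values were seen. The remaining 6 markers summed to 9.02, 9.72 and 8.22 CPM for LT and 15.2, 10.2 and 18.1 CPM for Fpn-LKO. These sums did not overlap, but the list was changed after its values were seen, and no background was computed for such a sum. In these sums Fpn-LKO replicate 2 was the lowest of its group but lay above every LT liver. Taken singly, 1 of the 6 monocyte markers tested was higher without overlap, against 5.25% of all genes tested. The part of these markers in the levels of Cd14, Myd88, Tlr2 and Tnfaip3 was not tested.

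The other genes of the pathway were taken from lists by role. Of 22 further receptors and receptor partners, 19 were tested and none passed the adjusted threshold. An unadjusted p under 0.05 was found for 2 with higher and 3 with lower values in Fpn-LKO, against 2.62% and 2.19% of all genes tested. Without overlap, 2 were higher and 3 lower, against 5.25% and 5.34% of all genes tested. The median log2 fold change of the 19 was 0.30. Tlr12, an endosomal receptor for profilin, gave 7.93, 8.45 and 7.13 CPM for LT and 5.28, 4.71 and 4.85 CPM for Fpn-LKO. The groups were apart (log2 fold change -0.66, SE 0.16, unadjusted p = 0.00345, adjusted p = 0.744, edgeR). The adjusted p of Tlr12 depended on the test, at 0.0797 with the Wald test of DESeq2 and 0.278 with exactTest of edgeR. Lbp, the acute-phase protein that carries lipopolysaccharide to CD14, is made by hepatocytes and gave 46.4, 46.4 and 50.5 CPM for LT and 79.8, 61.7 and 61.8 CPM for Fpn-LKO. It was higher in all 3 Fpn-LKO livers, with a log2 fold change of 0.50 (SE 0.13, unadjusted p = 0.00566, adjusted p = 0.829, edgeR). Ly96, which encodes MD-2, gave 1.77, 1.69 and 1.98 CPM for LT and 3.44, 3.15 and 2.82 CPM for Fpn-LKO, also without overlap (log2 fold change 0.79, SE 0.23, unadjusted p = 0.00915, adjusted p = 0.957, edgeR).

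Il1rap, the shared accessory chain of the interleukin-1 receptor family, gave 229, 248 and 234 CPM for LT and 201, 204 and 190 CPM for Fpn-LKO. It was lower in all 3 Fpn-LKO livers (log2 fold change -0.26, SE 0.11, unadjusted p = 0.0421, adjusted p = 0.982, edgeR). Cd180, a TLR4 relative of B cells and macrophages chosen here after its values were seen, gave 0.743, 0.623 and 0.580 CPM for LT and 0.252, 0.364 and 0.259 CPM for Fpn-LKO (log2 fold change -1.15, unadjusted p = 0.0182, adjusted p = 0.982, edgeR). Cd180 was counted on few reads, 37, 27 and 24 in LT and 12, 17 and 12 in Fpn-LKO, and the SE was 0.38. With 1 library left out its log2 fold change ran from -1.34 to -1.04. Summed lymphocyte markers ran from 1.55 to 5.98 CPM in LT and from 0.964 to 2.48 CPM in Fpn-LKO (exact permutation p = 0.2), and their part in the Cd180 values was not tested. None of these 5 receptor genes passed the adjusted threshold.

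**Figure D4:**
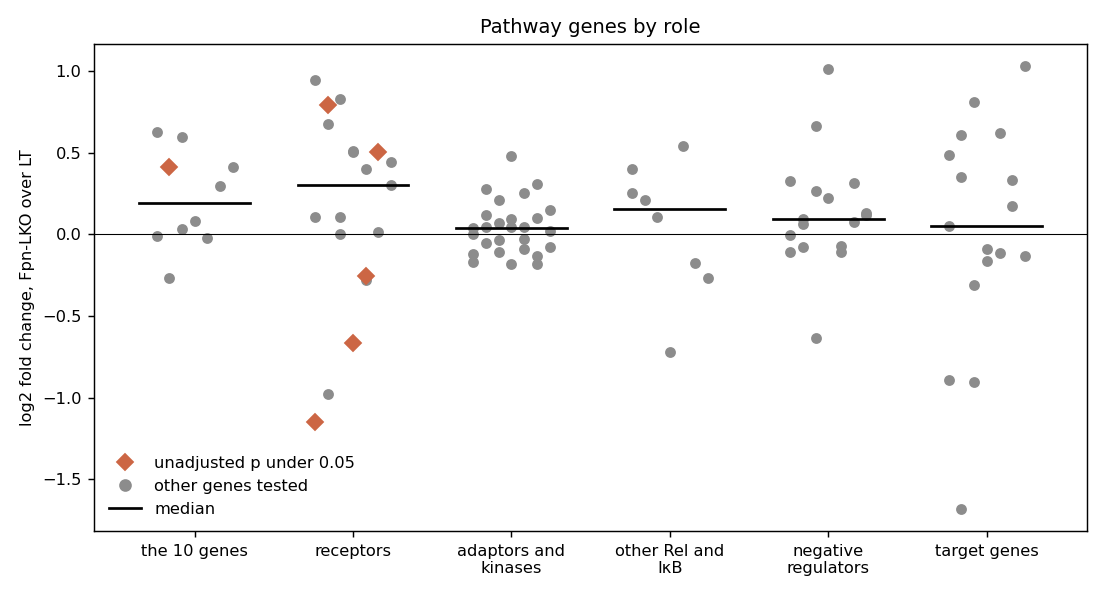
Log2 fold change, Fpn-LKO over LT, of every tested gene in the 10-gene set and in the 5 other lists, with 1 point per gene, a black bar at each list's median and diamonds for genes with an unadjusted p under 0.05 (edgeR, 3 mice per group). The 5 diamonds outside the 10-gene set all lie among the receptors, and the list medians run from 0.040 for adaptors and kinases to 0.30 for receptors.

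Between receptor and NF-κB, all 27 adaptors and kinases were tested, and none had an unadjusted p under 0.05. Their median log2 fold change was 0.040, with 16 above and 11 below 0. Without overlap, 1 was higher and 1 lower, against 5.25% and 5.34% of all genes tested. Chuk, which encodes the IκB kinase subunit IKKα, gave 229, 227 and 216 CPM for LT and 192, 200 and 200 CPM for Fpn-LKO, a small difference without overlap (log2 fold change -0.18, SE 0.10, adjusted p = 0.982, edgeR). Ikbkb, for IKKβ, had a log2 fold change of 0.25 (SE 0.15, adjusted p = 0.982, edgeR) that ran from 0.12 to 0.35 when 1 library was left out, and its groups overlapped. Traf2, a ubiquitin ligase scaffold of TNF receptor signalling, was higher without overlap, at 8.01, 7.18 and 8.39 CPM for LT and 9.85, 8.63 and 10.1 CPM for Fpn-LKO (log2 fold change 0.28, SE 0.15, adjusted p = 0.982, edgeR). Chuk and Ikbkb, 2 of the genes of the IκB kinase complex, thus had fold changes of opposite sign, neither past the threshold.

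Of the 8 other Rel and IκB family genes and relatives, all were tested and none had an unadjusted p under 0.05, with a median log2 fold change of 0.16. Rel, for the subunit c-Rel, and Nfkbil1, an IκB-like gene, were higher in Fpn-LKO without overlap, and Nfkbie, for IκBε, was lower without overlap. Of all genes tested, 5.25% were higher and 5.34% lower without overlap. Rel, named after its values were seen, gave 3.86, 3.72 and 2.90 CPM for LT and 4.36, 3.94 and 4.16 CPM for Fpn-LKO (log2 fold change 0.25, adjusted p = 0.985, edgeR, and 0.13 without LT replicate 3). Nfkbil1 had a log2 fold change of 0.54 (SE 0.28, adjusted p = 0.982, edgeR) and Nkap, a nuclear regulator of the pathway, -0.27 (SE 0.18, adjusted p = 0.982, edgeR). Nfkbie gave 1.79, 1.32 and 1.52 CPM for LT and 1.15, 0.535 and 1.12 CPM for Fpn-LKO (log2 fold change -0.72, SE 0.38, adjusted p = 0.982, edgeR). With 1 library left out, Nfkbie ran from -0.90 to -0.44 and Nkap from -0.39 to -0.15. Among 20 further negative regulators, 17 were tested with a median of 0.092 and none had an unadjusted p under 0.05. Otud7b, a deubiquitinase related to A20, had a log2 fold change of 0.32 (SE 0.15), N4bp1 0.31 (SE 0.15) and Il1rn, the interleukin-1 receptor antagonist, 0.66 (SE 0.44), each with an adjusted p of 0.982 (edgeR). With 1 library left out, Il1rn ran from 0.29 (without LT replicate 3) to 1.1 (without LT replicate 1) and Otud7b from 0.20 to 0.42. N4bp1 and Tnip1, an A20-binding protein named after its values were seen, were the 2 of this list that were higher without overlap. The share over all genes tested was 5.25%. For Tnip1 the gap was narrow, with 2.61, 2.632 and 2.634 CPM for LT and 3.04, 2.656 and 2.93 CPM for Fpn-LKO (log2 fold change 0.13, SE 0.21, adjusted p = 0.995, edgeR).

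Many known NF-κB target genes were near the limit of detection. Of 30 listed, 7 had 0 reads in all 6 libraries (Il6, Ccl20, Csf2, Csf3, Ptgs2, Nos2 and Ptx3), and 17 were tested. None of the 17 had an unadjusted p under 0.05, none had groups apart, and the median log2 fold change was 0.049, with 9 above and 8 below 0. Cxcl10, a chemokine that interferons also induce, gave 0.944, 0.831 and 0.749 CPM for LT and 3.17, 1.16 and 0.840 CPM for Fpn-LKO. Fpn-LKO replicate 1 stood above the other 5 libraries (log2 fold change 1.03, SE 0.52, adjusted p = 0.982, edgeR), and without it the log2 fold change was 0.25 (unadjusted p = 0.536). Bcl2l1, for the survival protein BCL-xL, had a log2 fold change of 0.35 (SE 0.21, adjusted p = 0.982, edgeR) that ran from 0.15 to 0.54 when 1 library was left out. At this depth, differences in the target genes at 0 reads were not detectable.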

How the data were processed

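Liver RNA of 3 LT and 3 Fpn-LKO mice was sequenced. Read counts, FPKM and TPM per gene were deposited by the authors, from reads aligned to mm10 and counted with StringTie 2.1.3b. The submitters' processing notes also name HISAT2 2.1.0 and Bowtie2 2.3.4.1. The deposited counts carry no normalization, FPKM is scaled by the authors to length and library size, and TPM by the authors to the same total per library. The labels give a stranded mRNA kit and the methods a kit for rRNA-depleted total RNA.

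A gene was kept if at most 1 library had 0 reads. The counts of the 17274 genes kept were TMM-scaled and compared by the quasi-likelihood test of edgeR 4.0.16 (R 4.3.3), Benjamini-Hochberg adjusted across all of them, in place of the exactTest of the methods. The common biological coefficient of variation was 0.275. CPM is the count over the TMM-scaled library size. The labels do not say whether mice of a group were littermates of each other, so p-values weigh the genotype difference against the spread between these libraries only.

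Genes named were Slc40a1, the 10 genes, and in each other list those with an unadjusted p under 0.05, or the 3 smallest p, at a mean of at least 0.5 CPM. For the 3 of the 10 genes with the widest range, the 3 genes with the most similar profile were added, and in marker lists the highest gene. Cd180, Il1b, Rel, Tnip1, Ccr2 and Plac8 were named outside these rules, after their values were seen. The genes and lists were chosen with earlier results of these data known. Alternatives were RLE size factors, DESeq2 1.42.0, exactTest, no filter beyond 1 read, filterByExpr, the replicate block, limma 3.58.1 on log2(TPM + 1) and log2(TPM + 0.1) at a mean TPM of at least 1, and leaving out each library. A sum of the monocyte markers without Fn1 was added after the data were seen. Exons and overlaps come from GENCODE on GRCm38 and promoter windows from RefSeq.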

Additional observations from a re-analysis of the deposited data

How the results depend on the processing

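None of the 10 genes and none of the other pathway genes passed an adjusted p of 0.05 in any of the 14 alternatives, while the number of all genes doing so, 4, was 72 with DESeq2, 63 with exactTest, 7 with limma on log2(TPM + 0.1), 0 with the replicate block and 0 to 6 when 1 library was left out. The 1 gene of the 10 with an unadjusted p under 0.05 was 0 with exactTest, 0 with the replicate block and 0 to 2 when 1 library was left out, and the 2 without Fpn-LKO replicate 2 were Myd88 and Cd14. The median log2 fold change of the 10 genes ran from -0.015 (without Fpn-LKO replicate 1) to 0.30 (without LT replicate 2). For the other pathway and target genes together, the median of 0.070 was 0.14 on log2(TPM + 1), 0.16 on log2(TPM + 0.1) and 0.017 to 0.13 with 1 library left out, and the count of 5 genes with an unadjusted p under 0.05 ran from 3 to 9. Signs turned on log2(TPM + 1) and log2(TPM + 0.1) for Tlr2 (0.048 and 0.067) and Nfkbia (0.082 and 0.086), and with 1 library left out for Slc40a1 (-0.11 to 0.14), Tlr2 (-0.10 to 0.16), Nfkb1 (-0.059 to 0.12), Nfkb2 (-0.012 to 0.18), Nfkbia (-0.13 to 0.14) and Relb (-0.53 to 0.75). The cause was not tested. On log2(TPM + 1) and log2(TPM + 0.1) the median log2 fold change over all genes tested was 0.083 and 0.097, beside -0.0040 in the main fit. None of the other pathway genes given with values changed sign in an alternative that tested it. Relb, Nfkb2 and Tnfaip3 were below the TPM minimum of the limma alternatives. The labels give same-numbered mice of the groups a shared number and no stated pairing. Their deviations correlated at 0.261, 0.0382 and 0.143. Only Fpn-LKO replicate 2 correlated better with another number, at 0.0859 with LT replicate 3. Whether the mice were paired cannot be told from these values. Among the 10 genes, depth limits Relb and Cd14 most, and the width of the intervals rests on the spread between 3 mice per group.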

Other observations

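For the 3 of the 10 genes with the widest range over the 6 libraries, the genes with the most similar centred log2 CPM profile were sought among the tested genes with a mean of at least 1 CPM. Closest to Relb were Camk1d, Ugt1a10 and Fos, with root-mean-square differences of 0.138, 0.169 and 0.214 on the log2 scale over 6 libraries. Ugt1a10 shares exons with the rest of its gene family, so its counts are uncertain. Closest to Tnfaip3 were Zcwpw1, Cldn2 and Kif5a (0.101, 0.112 and 0.146), and closest to Cd14 were Gm12715, Myo1f and Lgals3 (0.205, 0.213 and 0.218). None of these 9 genes passed an adjusted p of 0.05, and the search covered 12553 or 12554 genes each time.

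Summed markers of the other liver cells are given as ranges. Endothelial markers ran from 354 to 427 CPM in LT and from 333 to 354 CPM in Fpn-LKO (exact permutation p = 0.2). Stellate cell markers ran from 427 to 496 CPM in LT and 450 to 504 CPM in Fpn-LKO (exact permutation p = 0.5). Monocyte markers ran from 780 to 876 CPM in LT and 781 to 1156 CPM in Fpn-LKO, of which Fn1, which hepatocytes also express, made up 97.7% to 99.1% (exact permutation p = 0.8). Of the 6 monocyte markers tested, 5 had a log2 fold change above 0, with a median of 0.62. Ccr2, the chemokine receptor of inflammatory monocytes, had a log2 fold change of 0.83 (unadjusted p = 0.0428, adjusted p = 0.982, edgeR), and Plac8 of 0.40 with groups apart. Both were named after their values were seen. Among all genes tested, 2.62% had an unadjusted p under 0.05 with higher values and 5.25% were higher without overlap. The Kupffer cell and hepatocyte lists also held 1 gene of each kind, the stellate list 1 and 2, and the endothelial list 1 and 0. Cholangiocyte markers ran from 14.0 to 85.3 CPM in LT and 22.2 to 31.3 CPM in Fpn-LKO (exact permutation p = 1). The highest Kupffer cell marker was Clec4f, with a mean of 111 CPM over the 6 libraries.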
